A study of Mus musculus with 12 samples.

Results

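Cells that leave or keep to the BM niche read a small set of surface receptors, and 9 genes for such receptors and their partners were examined here: Cxcr4, S1pr1, Itga4, Itga6, Itgal, Itgb1, Vcam1, Selplg and Cd44. They were listed by symbol, by a rule that holds no measured value but that was written with earlier results of these data known, and each symbol was matched to 1 Ensembl identifier among the 56748 gene entries of each library. All 9 had counts, and all 9 were among the 18438 genes that passed the filter on low counts. The cells were murine Lin−Sca+Kit+ (LSK) BM cells, a fraction rich in haemopoietic stem and multipotent progenitor cells, sorted as CD45.2+ donor cells and profiled by bulk RNA-seq in 12 libraries. Donor BM carried the SCLtTA and BCR-ABL transgenes in both groups, with the transactivator under the control of elements of the stem cell leukaemia gene, and it was transplanted into B6.SJL CD45.1 recipients aged 8 to 12 weeks that had received 2 radiation doses of 4.25 Gy. Tetracycline (TET), which keeps the BCR-ABL transgene silent in this model, was withdrawn for 2 weeks in the CML 2wk group (BCR::ABL1+, n = 6) and was continued in the CTRL group (BCR::ABL1−, n = 6). The donor BM was a frozen pool from several mice of both sexes, and the recipients were of both sexes too, so libraries of a group may share donors. Every BCR::ABL1− sample is labelled male and every BCR::ABL1+ sample female, and sex as labelled and group cannot be told apart. Xist, which is transcribed from the inactive X chromosome, nevertheless was abundant in both groups, with normalised counts (CPM, counts scaled to a common library size) of 3794 to 4425 in BCR::ABL1− and of 2183 to 3502 in BCR::ABL1+. The Y-linked Ddx3y had at most 0.588 CPM in BCR::ABL1− and reached 8.64 CPM in BCR::ABL1+ replicate 2 and 1.14 CPM in replicate 4, with 0 in the other 4.

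As background, the chemokine Cxcl12 made by niche cells holds stem cells in the BM through Cxcr4, while sphingosine-1-phosphate (S1P) in the blood draws cells outwards through S1pr1. Integrins are pairs of an alpha and a beta chain: Itga4 and Itga6 pair with Itgb1, and Itgal pairs with Itgb2. The Itga4/Itgb1 receptor binds Vcam1 and fibronectin, the Itga6/Itgb1 receptor binds laminins, and the Itgal/Itgb2 receptor binds Icam proteins. Selplg carries the glycans that selectins bind, and Cd44 binds hyaluronan.

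BCR::ABL1− libraries held 22804754 to 41832868 counts on genes and BCR::ABL1+ libraries 16150817 to 25070105, and mitochondrial genes took 0.816 to 1.29% of counts in BCR::ABL1− and 2.26 to 2.97% in BCR::ABL1+. The biological coefficient of variation between libraries was 10.9% for BCR::ABL1− but 32.6% for BCR::ABL1+. Of the sorting markers, Kit lay at 681 to 800 CPM in BCR::ABL1− and at 323 to 522 CPM in BCR::ABL1+. Ptprc lay at 442 to 478 CPM in BCR::ABL1− and at 497 to 619 CPM in BCR::ABL1+, so neither gene overlapped between the groups. Ly6a, which encodes the Sca1 antigen, lay at 27.2 to 74.1 CPM over both groups. Whether the sorted cells differed between the groups was not tested. The summed level of 13 stem and multipotent progenitor markers lay between 2053 and 2355 CPM in BCR::ABL1− libraries and between 1265 and 1558 CPM in BCR::ABL1+ libraries. Replicate 2 of BCR::ABL1+ stood apart: it held the highest value of 11 of 16 stromal, 8 of 12 monocyte and macrophage and 8 of 11 mast cell and basophil markers, and its summed stromal level was 1158 CPM, beside 518 CPM in replicate 4, 164 to 221 CPM in the other 4 BCR::ABL1+ libraries and 288 to 316 CPM in BCR::ABL1−. Outside replicates 2 and 4 of BCR::ABL1+, most of the stromal sum came from Runx2 and Pdgfrb. Runx2 alone lay at 174 to 199.5 CPM in BCR::ABL1− and at 88.1 to 124 CPM in BCR::ABL1+. Replicate 4 of BCR::ABL1− had the highest value of 9 of 10 neutrophil markers. No marker of the 11 lists examined was at 0 in all libraries. The deposited files also carry numbers in 3 series, 1 for replicates 1 to 5 of BCR::ABL1−, 1 for replicates 1 to 5 of BCR::ABL1+ and 1 shared by replicate 6 of both groups. What these series stand for is not given in the sources used here, and only replicate 6 allows a comparison within a series.

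Of the 9 genes, 1 was higher and 4 were lower in BCR::ABL1+ at an adjusted p under 0.05, and 4 did not pass. Cxcr4 rose, S1pr1, Itga4, Itgal and Selplg fell, and Itga6, Itgb1, Vcam1 and Cd44 were not called. Among all 18438 genes, 59.5% were called, 30.6% higher and 29.0% lower, so the share called among the 9 genes (55.6%) was near that of all genes. The median log2 fold change of the 9 genes was −0.28 and that of all genes tested 0.07. For 2 of the 9 genes, Itga4 and Selplg, the 6 and 6 libraries did not overlap, beside 37.6% of all genes. In bulk RNA-seq, fewer cells that express a gene and less RNA of it per cell cannot be told apart, and markers of several cell types moved along with these genes. Of 13 stem and multipotent progenitor markers 10 were lower and 1 higher, of 10 erythroid markers 8 were lower and 1 higher, and of 8 tested megakaryocyte markers 6 were lower. Of 11 mast cell and basophil markers 8 were higher and 1 lower, with a median log2 fold change of 3.09 and sums of 302 to 420 CPM in BCR::ABL1− libraries against 521 to 2720 CPM in BCR::ABL1+ libraries, without overlap. Their part in the changes of the 9 genes was not tested.

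**Figure D1:**
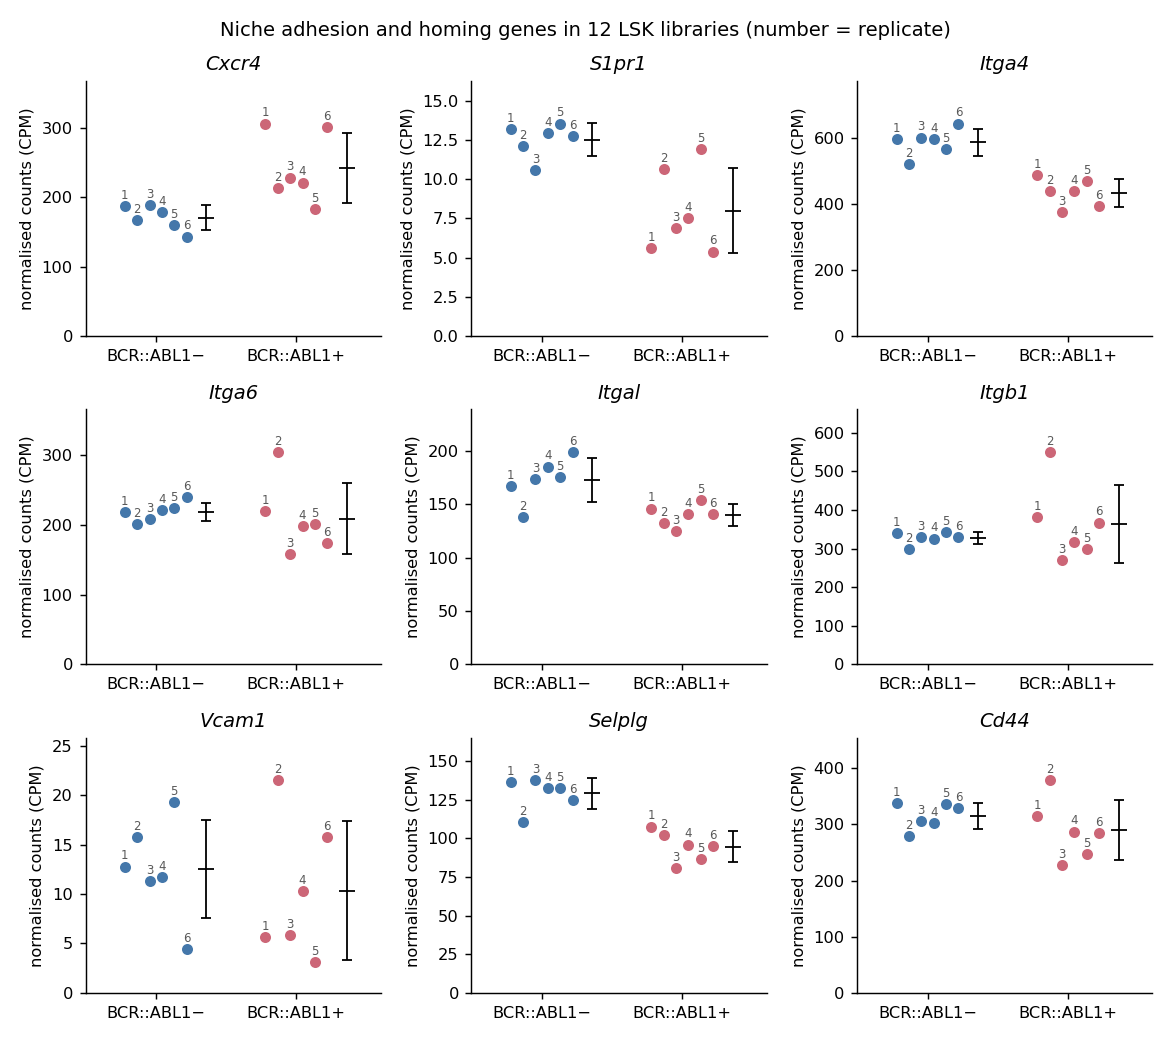
Normalised counts (CPM, vertical axis from 0) of the 9 genes in each library, with the replicate number above each point and the mean ± SD of each group as a black bar (n = 6 per group). Itga4 and Selplg separate the groups without overlap, and replicate 2 of BCR::ABL1+ is the highest point for Itga6, Itgb1, Vcam1 and Cd44.

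Compared per kb of exon, the 9 transcripts kept much the same order in both groups. In BCR::ABL1−, Cxcr4 was the most abundant at 94.3 ± 9.71 CPM per kb (SD, n = 6), followed by Itgb1 at 80.4 ± 3.74, Cd44 at 46.5 ± 3.39, Itga4 at 42.0 ± 2.93, Selplg at 30.2 ± 2.37, Itgal at 26.4 ± 3.14 and Itga6 at 24.3 ± 1.48 CPM per kb. S1pr1 at 4.11 ± 0.349 and Vcam1 at 1.42 ± 0.560 CPM per kb were far lower. Library ranges overlapped between Cxcr4 and Itgb1, between Cd44 and Itga4, and among Selplg, Itgal and Itga6, so these neighbours were not separated by their spread, whereas the other steps of the order were. In BCR::ABL1+, Cxcr4 led at 134 ± 27.7 and Itgb1 followed at 89.3 ± 24.6 CPM per kb, with overlapping ranges, and Itga6 at 23.2 ± 5.71 stood before Selplg at 22.2 ± 2.30 and Itgal at 21.3 ± 1.54. The ranges of S1pr1 and Vcam1 met in BCR::ABL1+, at 1.77 to 3.92 and 0.347 to 2.42 CPM per kb.

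Cxcr4, the receptor for Cxcl12, was the only one of the 9 genes that rose. Its level was 187, 167, 188, 179, 160 and 143 CPM in BCR::ABL1− replicates 1 to 6 and 306, 213, 228, 221, 182 and 300.3 CPM in BCR::ABL1+ replicates 1 to 6. Of the BCR::ABL1+ libraries, 5 of 6 lay above the highest BCR::ABL1− library, and replicate 5 lay within the BCR::ABL1− range. The mean rose from 170.4 ± 17.6 to 242 ± 50.1 CPM (SD, n = 6 per group), a log2 fold change of 0.50 ± 0.12 (SE) or 1.42-fold (adjusted p = 0.00232). Replicate 6 of the 2 groups, at 143 and 300.3 CPM, gave a log2 fold change of 1.07 ± 0.26 within their shared number series (adjusted p = 0.00979), with the spread taken from the other libraries.

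S1pr1, the S1P receptor that guides egress towards the blood, moved the other way. It had 13.2, 12.1, 10.6, 12.9, 13.6 and 12.8 CPM in BCR::ABL1− and 5.61, 10.7, 6.86, 7.54, 11.9 and 5.38 CPM in BCR::ABL1+. Replicates 1, 3, 4 and 6 of BCR::ABL1+ lay below every BCR::ABL1− library, and replicates 2 and 5 lay inside the BCR::ABL1− range. The mean fell from 12.5 ± 1.06 to 7.99 ± 2.70 CPM, with a log2 fold change of −0.64 ± 0.19 (adjusted p = 0.00804). The value from replicate 6 alone was −1.25 ± 0.44, and it did not pass (adjusted p = 0.0551).

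Promoter sequences are shown for Cxcr4 and Itga4, called in opposite directions, in the RefSeq annotation of GRCm38.p6, a mouse build other than the GRCm39 named in the submitters' processing notes. Each is the 250 bases before the annotated start, 5′ to 3′ on the strand of the gene, at chr1:128592300-128592549 on the minus strand for Cxcr4 and at chr2:79255176-79255425 on the plus strand for Itga4. Capitals mark the GC box letters GGGCGG and the CACCC box letters CACCC on either strand.
Cxcr4: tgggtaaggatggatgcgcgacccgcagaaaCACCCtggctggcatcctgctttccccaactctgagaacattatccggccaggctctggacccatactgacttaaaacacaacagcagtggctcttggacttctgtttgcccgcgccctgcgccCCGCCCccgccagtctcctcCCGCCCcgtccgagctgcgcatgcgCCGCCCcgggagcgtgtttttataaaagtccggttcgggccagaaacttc
Itga4: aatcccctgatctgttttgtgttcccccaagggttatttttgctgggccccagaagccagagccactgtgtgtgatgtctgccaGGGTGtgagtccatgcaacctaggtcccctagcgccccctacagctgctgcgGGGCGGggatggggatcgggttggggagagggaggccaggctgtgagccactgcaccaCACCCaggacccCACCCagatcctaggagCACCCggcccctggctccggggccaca
The Cxcr4 window held 3 GC boxes and 1 CACCC box, and the Itga4 window held 1 GC box and 4 CACCC boxes. GC box letters stood in 32.7% and CACCC letters in 52.0% of all 32851 RefSeq windows of this length, so matches of both kinds are common. The Itga4 window also held 1 match of the RUNX letters TGTGGT, found in 14.1% of all windows. The STAT letters TTCNNNGAA, found in 7.02% of windows, and the E-box letters CACGTG, found in 6.02%, had 0 matches in either window. Of the 9 genes, 4 had a window in the table used, and those of Itgb1 and Cd44 are not shown because neither gene was called.

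Itga4, the alpha chain of the receptor for Vcam1 and fibronectin, fell in every BCR::ABL1+ library. It had 596, 521, 601, 597, 567 and 644 CPM in BCR::ABL1− and 488, 439, 375, 439, 468 and 394 CPM in BCR::ABL1+. The lowest BCR::ABL1− library, replicate 2, was above the highest BCR::ABL1+ library, replicate 1. The means were 587 ± 41.0 and 434 ± 42.9 CPM, and the log2 fold change was −0.44 ± 0.08 (adjusted p = 0.000163). Within the number series of replicate 6 it was −0.71 ± 0.18 (adjusted p = 0.0105), and of the 4 genes that fell, Itga4 alone kept its call in that fit.

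Itgal, the alpha chain that pairs with Itgb2 to bind Icam1 and Icam2, fell as well. Its level was 167, 138, 174, 186, 176 and 199 CPM in BCR::ABL1− and 146, 132, 125, 141, 154 and 141 CPM in BCR::ABL1+. Replicate 2 of BCR::ABL1− lay among the BCR::ABL1+ values, and the other 5 BCR::ABL1− libraries lay above all 6. The means were 173 ± 20.6 and 139.9 ± 10.1 CPM, and the log2 fold change was −0.31 ± 0.08 (adjusted p = 0.00443). From replicate 6 alone the change was −0.50 ± 0.19 and did not pass (adjusted p = 0.0769).

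Itga6, the laminin-binding alpha chain, was not called. It had 219, 201, 209, 221, 224 and 239.7 CPM in BCR::ABL1− and 219.7, 305, 159, 198, 201 and 174 CPM in BCR::ABL1+. BCR::ABL1+ replicate 2 was the highest of all 12 libraries and replicate 3 the lowest, and the BCR::ABL1+ values surrounded the BCR::ABL1− range. The log2 fold change was −0.06 ± 0.13 (adjusted p = 0.68). Without BCR::ABL1+ replicate 2 it was −0.21 ± 0.08 and passed (adjusted p = 0.0371). That library had the highest stromal sum (1158 CPM) and the highest mast cell and basophil sum (2720 CPM). Its megakaryocyte sum was 460.7 CPM, beside 142 to 228 CPM in the other BCR::ABL1+ libraries and 415 to 469 CPM in BCR::ABL1−. Their part in the Itga6 values was not tested.

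Itgb1, the beta chain shared by Itga4 and Itga6, had 339, 299.5, 330.4, 326, 343 and 330.5 CPM in BCR::ABL1− and 382, 550.3, 271, 316, 299 and 367 CPM in BCR::ABL1+. Replicate 2 of BCR::ABL1+ was again the highest and replicate 3 the lowest of all libraries. The means of 328 ± 15.3 and 364 ± 100.2 CPM did not differ beyond the spread (log2 fold change 0.15 ± 0.14, adjusted p = 0.351). Without replicate 2 of BCR::ABL1+ the log2 fold change was −0.01 ± 0.09 (adjusted p = 0.907).

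Because 2 chains make 1 receptor, their counts were also set against each other within each library, where the scaling between libraries cancels. The log2 ratio of Itga4 to Itgb1 counts ranged from 0.73 to 0.96 among BCR::ABL1− libraries and from −0.33 to 0.65 among BCR::ABL1+ libraries, without overlap. The mean fell from 0.84 ± 0.08 to 0.29 ± 0.35, a difference of −0.55 (two-sided exact permutation test over 924 splits, p = 0.002165, the smallest these splits allow, adjusted over 4 ratios p = 0.00433). The ratio of Itga4 to Itga6 also fell without overlap, from 1.42 ± 0.07 to 1.08 ± 0.27 on the log2 scale (difference −0.35, exact permutation p = 0.002165, adjusted p = 0.00433), and here replicate 2 of BCR::ABL1+ was far below the rest at 0.53. The ratio of Itga6 to Itgb1 was −0.59 ± 0.07 and −0.79 ± 0.17, a difference of −0.21 with overlapping libraries (exact permutation p = 0.0152, adjusted p = 0.0202), and without replicate 6 of both groups it no longer passed (difference −0.13, adjusted p = 0.0741). Itgal to Itgb2 showed no shift past the spread, with 1.30 ± 0.23 in BCR::ABL1− and 1.28 ± 0.32 in BCR::ABL1+ (difference −0.02, exact permutation p = 0.933).

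**Figure D2:**
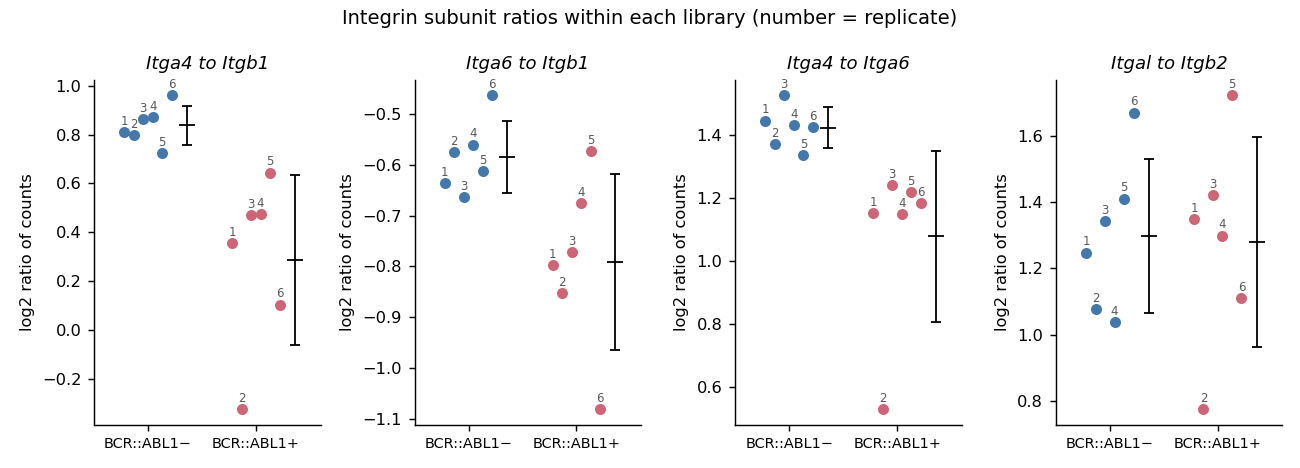
Log2 ratio of the counts of the named integrin subunits within each library (vertical axis, 1 panel per ratio), with the replicate number above each point and the mean ± SD of each group as a black bar (n = 6). All 6 BCR::ABL1+ libraries lie below all 6 BCR::ABL1− libraries for Itga4 to Itgb1 and Itga4 to Itga6, and the groups overlap for Itga6 to Itgb1 and Itgal to Itgb2.

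Vcam1, the cell surface ligand of the Itga4/Itgb1 receptor, was the scarcest of the 9 genes per kb of exon. It had 12.8, 15.8, 11.3, 11.7, 19.3 and 4.45 CPM in BCR::ABL1− and 5.61, 21.5, 5.82, 10.3, 3.08 and 15.8 CPM in BCR::ABL1+. The ranges overlapped almost fully, and the highest value was again in replicate 2 of BCR::ABL1+, where the stromal sum was 1158 CPM. The monocyte and macrophage sum was 489.9 CPM in replicate 2 and 613 and 692 CPM in replicates 1 and 6 of BCR::ABL1+. Ccr2 alone took 188.5 CPM of it in replicate 2 and 405 and 315 CPM in replicates 1 and 6. Of the 12 markers summed, 8 had their highest value of all libraries in replicate 2. The part of such cells in the Vcam1 values was not tested. The log2 fold change of −0.28 ± 0.42 was smaller than its error (adjusted p = 0.587), and replicate 6 alone gave 1.83 ± 0.95 (adjusted p = 0.193).

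Selplg, the P-selectin ligand, fell without overlap between the groups. Its level was 137, 111, 137, 133, 133 and 125 CPM in BCR::ABL1− and 108, 102, 80.6, 95.9, 86.7 and 95.1 CPM in BCR::ABL1+. The means were 129 ± 10.1 and 94.6 ± 9.83 CPM, with a log2 fold change of −0.45 ± 0.08 (adjusted p = 0.000153). From replicate 6 alone the change was −0.39 ± 0.20 and was not called (adjusted p = 0.183).

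Cd44, the hyaluronan receptor, had 338, 279.7, 306, 303, 337 and 329 CPM in BCR::ABL1− and 315, 378, 228, 287, 247 and 284 CPM in BCR::ABL1+. Replicate 2 of BCR::ABL1+ was the highest and replicate 3 the lowest, replicate 5 also lay below every BCR::ABL1− library, and replicates 1, 4 and 6 lay within the BCR::ABL1− range. The log2 fold change was −0.12 ± 0.10 (adjusted p = 0.338). Without replicate 2 of BCR::ABL1+ it was −0.22 ± 0.08 and passed (adjusted p = 0.0344).

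**Figure D3:**
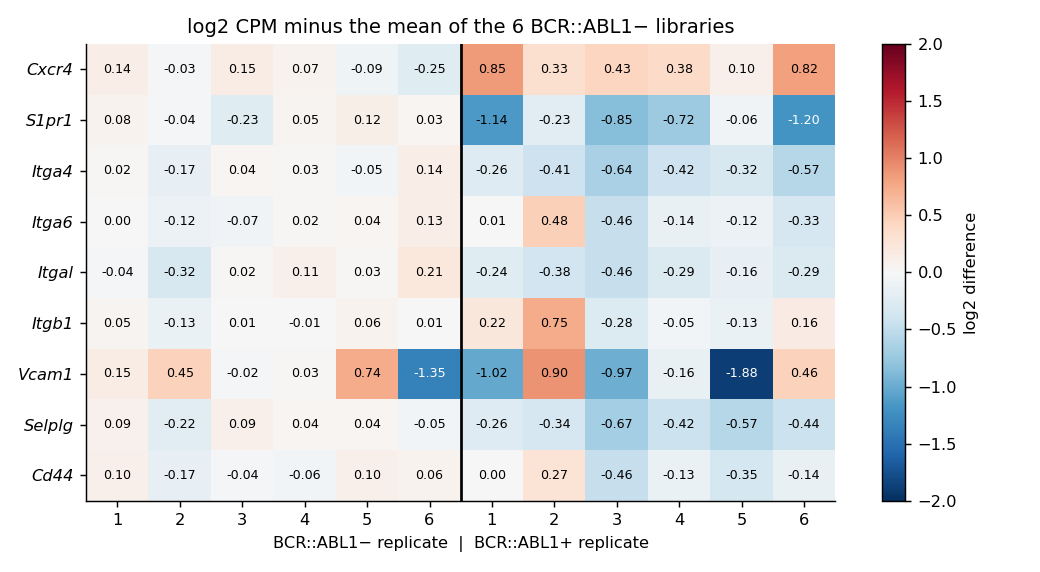
Difference of log2 CPM from the mean of the 6 BCR::ABL1− libraries (colour and printed value) for the 9 genes (rows) in each library (columns, replicates 1 to 6 of BCR::ABL1− to the left of the line and of BCR::ABL1+ to the right). Cxcr4 is positive and Itga4, Itgal, Selplg and S1pr1 are negative in all 6 BCR::ABL1+ libraries, while Itga6, Itgb1, Vcam1 and Cd44 change sign between libraries.

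For 7 of the 9 genes, all but Itgal and Selplg, the SD in CPM was larger among the BCR::ABL1+ libraries than among the BCR::ABL1− libraries. Replicate 2 of BCR::ABL1+ held the highest of 12 values for 4 genes (Itga6, Itgb1, Vcam1 and Cd44), and replicate 3 held the lowest for 6 (Itga4, Itga6, Itgal, Itgb1, Selplg and Cd44). Replicate 6 of BCR::ABL1− held the highest Itga4 and Itgal and the lowest Cxcr4. Leaving out any 1 of the 12 libraries left Cxcr4 higher at 0.42 to 0.57 and S1pr1 (−0.79 to −0.56), Itga4 (−0.48 to −0.40), Itgal (−0.37 to −0.27) and Selplg (−0.49 to −0.41) lower on the log2 scale, all past the threshold. Without BCR::ABL1+ replicates 2 and 4, which had the highest stromal sums, 6 of the 9 genes were lower, Itga6 and Cd44 being added, and 1 was higher. Calls among all genes rose in that fit too, to 6069 higher and 6061 lower from 5637 and 5339.

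**Figure D4:**
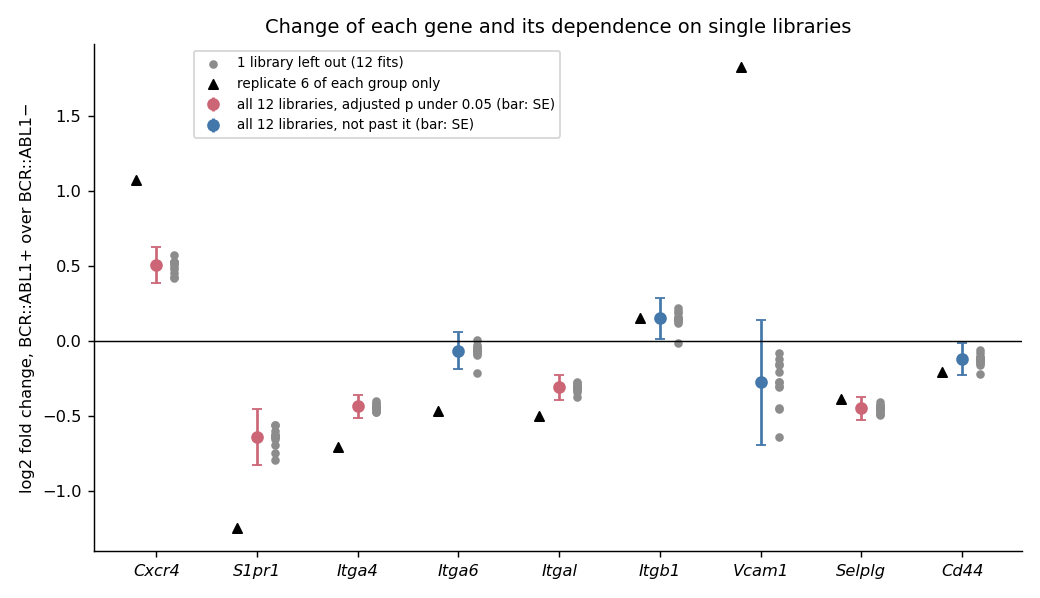
Log2 fold change of BCR::ABL1+ over BCR::ABL1− (vertical axis) for the 9 genes: large points with bars are the estimate from all 12 libraries ± SE, small grey points the 12 fits without 1 library, and triangles the value from replicate 6 of each group alone. The grey points of the 5 called genes stay on 1 side of 0, and the triangle of Vcam1 lies at 1.83, opposite to the other estimates.

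The other genes of these pathways were followed in 6 lists, 170 genes in all besides the 9, of which 152 passed the filter on low counts. Of these, 33 were higher, 58 lower and 61 not called (59.9% called, beside 59.5% of all genes tested). The groups did not overlap for 55 of the 152, beside 37.6% of all genes tested. The median log2 fold change was −0.18. The counts by list below stand beside 30.6% higher and 29.0% lower of all genes tested. Without BCR::ABL1+ replicates 2 and 4 the counts of these genes were 27 higher and 85 lower, beside 6069 higher and 6061 lower of all genes. In the fit that rests on replicate 6 they were 14 and 28.

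In the chemokine and S1P list, 5 of 31 tested genes rose, 16 fell and 10 were not called, with a median log2 fold change of −0.44. Cxcl12 itself, the ligand of Cxcr4, lay between 1.17 and 3.45 CPM in BCR::ABL1− libraries and was not called (adjusted p = 0.152). In BCR::ABL1+ it was at 2.95 and 1.68 CPM in replicates 2 and 4. The other 4 BCR::ABL1+ libraries lay at 0 to 0.0987 CPM, below every BCR::ABL1− library. Ackr3, the scavenging receptor for Cxcl12, did not pass the filter and was above 0.1 CPM only in BCR::ABL1+ replicates 2 (15.5 CPM) and 4 (1.68 CPM), the libraries with the highest stromal sums. The chemokine receptors Ccr1 (log2 fold change 3.74 ± 0.36, adjusted p = 8.33e-07) and Ccr2 (1.86 ± 0.16, adjusted p = 3.28e-07) rose without overlap, beside a monocyte and macrophage sum between 169 and 226 CPM for BCR::ABL1− libraries and between 352 and 692 CPM for BCR::ABL1+ libraries. That list contains Ccr2, and without it the sums overlapped, at 89.5 to 150.6 and 100.4 to 377 CPM. Of its 10 tested markers, 2 were higher, 1 was lower and 7 were not called. The part of such cells in these values was not tested. The arrestin gene Arrb1, whose product binds activated receptors, fell by 1.24 ± 0.07 on the log2 scale (adjusted p = 1.71e-08).

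Around S1pr1, several genes of the S1P pathway moved. Cd69, whose product holds S1pr1 inside the cell, rose from 43.1 ± 8.58 to 70.8 ± 17.6 CPM (log2 fold change 0.72 ± 0.16, adjusted p = 0.00137). Klf2, a transcription factor known to drive S1pr1, went from 11.2 ± 5.49 to 5.50 ± 3.04 CPM (−1.01 ± 0.35, adjusted p = 0.0233), with overlapping libraries for both genes. Mfsd2b, an S1P exporter of blood cells, fell from 52.2 ± 4.76 to 9.61 ± 2.15 CPM (−2.44 ± 0.13, adjusted p = 1.71e-08). The S1P receptor S1pr4 fell from 40.2 ± 4.26 to 25.9 ± 2.00 CPM (−0.63 ± 0.08, adjusted p = 1.23e-05). S1pr2 (0.06 ± 0.09) and S1pr3 (0.00 ± 0.12) were not called.

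Among the other integrin subunits, 3 of 19 tested genes rose, 5 fell and 11 were not called. Itgb7, the alternative beta chain for Itga4, fell from 81.8 ± 9.67 to 54.3 ± 7.34 CPM without overlap (log2 fold change −0.59 ± 0.10, adjusted p = 0.000102). Itgax, an alpha chain of myeloid cells, fell by 1.48 ± 0.23 on the log2 scale (adjusted p = 6.34e-05). Itgb2, the partner of Itgal, was at 70.6 ± 10.04 and 58.5 ± 11.6 CPM and was not called (−0.27 ± 0.12, adjusted p = 0.0689). Itga5, the fibronectin-binding alpha chain, was not called either (−0.07 ± 0.16, adjusted p = 0.736).

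Of the integrin ligands and adhesion receptors, 6 of 32 rose and 8 fell, and 18 were not called. Icam1 (−0.16 ± 0.10) and Icam2 (0.17 ± 0.17), ligands of the Itgal/Itgb2 receptor, were not called. Spp1, the osteopontin gene, was at 2.27 to 5.51 CPM in BCR::ABL1− and at 14.1, 2625, 8.27, 202.5, 8.51 and 8.88 CPM in BCR::ABL1+, without overlap (log2 fold change 7.02 ± 1.58, adjusted p = 0.00147). The 2 high values were in replicates 2 and 4, the libraries with the highest stromal sums, while the other 4 lay between 8.27 and 14.1 CPM, still above every BCR::ABL1− library. Fn1, the fibronectin gene, was at 8.26 to 45.2 CPM in BCR::ABL1−, at 2005 and 188 CPM in the same replicates 2 and 4, and at 1.35 to 2.27 CPM in the other 4 BCR::ABL1+ libraries, so that it was not called (adjusted p = 0.0544). The receptors Tek (−1.64 ± 0.22), which binds angiopoietins, Robo4 (−1.54 ± 0.12) and Notch1 (−1.35 ± 0.09) fell without overlap. Tek is also among the stem and multipotent progenitor markers, whose sum was lower in every BCR::ABL1+ library.

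Of the list of selectins, their ligands and the enzymes that glycosylate them, 6 of 19 rose, 10 fell and 3 were not called. The share called, 84.2%, was the highest of the 6 lists, beside 42.1% for the lowest, integrin subunits, and 59.5% of all genes tested. Sele (E-selectin) rose from 3.81 ± 0.635 to 15.4 ± 4.70 CPM (log2 fold change 2.01 ± 0.20, adjusted p = 1.10e-06) and Selp (P-selectin) from 67.2 ± 8.73 to 93.5 ± 19.1 CPM (0.48 ± 0.13, adjusted p = 0.00556). The libraries overlapped for Selp and not for Sele. The sum of 10 endothelial markers, Sele not among them, ran lower in BCR::ABL1+ libraries (69.9 to 104 CPM) than in BCR::ABL1− libraries (138 to 163 CPM), but without Tie1, named after its values were seen, the sums overlapped (49.2 to 75.2 and 68.9 to 83.7 CPM). Of 8 tested endothelial markers, 3 were lower and 5 were not called, and BCR::ABL1+ replicate 2 held the highest value of 6 of the 10. On the ligand side, Cd34 is also 1 of the 13 stem and multipotent progenitor markers, of which 10 were lower. This sialomucin, which can carry selectin ligands, fell like Selplg, from 749.6 ± 58.3 to 553 ± 62.8 CPM (−0.44 ± 0.08, adjusted p = 0.000347). Of the enzymes that decorate such ligands, the fucosyltransferases Fut7 (−0.48 ± 0.08) and Fut4 (−0.78 ± 0.12) and the tyrosine sulphotransferase Tpst2 (−0.40 ± 0.08) fell, and C1galt1c1, the chaperone of core O-glycan synthesis, rose (0.77 ± 0.12), each without overlap.

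Inside the cell, the linker list had 8 of 35 genes higher, 17 lower and 10 not called. Talin (Tln1), which binds beta chain tails to activate integrins, fell from 1386 ± 54.7 to 601 ± 96.4 CPM (log2 fold change −1.20 ± 0.09, adjusted p = 1.41e-07). The focal adhesion gene Zyx (−1.16 ± 0.09) and the adaptor gene Fyb (−0.94 ± 0.10), which joins T-cell and integrin signalling, fell as well. Itgb1bp1, which competes for the Itgb1 tail, rose from 17.5 ± 1.28 to 36.5 ± 7.59 CPM (1.06 ± 0.13, adjusted p = 5.50e-06). Of the proteases and inhibitors, 5 of 16 rose, 2 fell and 9 were not called. The neutrophil granule proteases Ctsg (2.90 ± 0.21), Prtn3 (1.96 ± 0.18) and Elane (1.45 ± 0.25) rose with their inhibitor Serpinb1a (1.20 ± 0.11), each without overlap. The neutrophil marker sum, to which Elane belongs, overlapped between the groups (288 to 2797 CPM in BCR::ABL1−, 443 to 1191 CPM in BCR::ABL1+). Of the 10 neutrophil markers, 1 was higher, 5 were lower and 4 were not called, with a median log2 fold change of −1.66, and without Elane the sums were 117 to 2563 and 96.0 to 444 CPM.

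**Figure D5:**
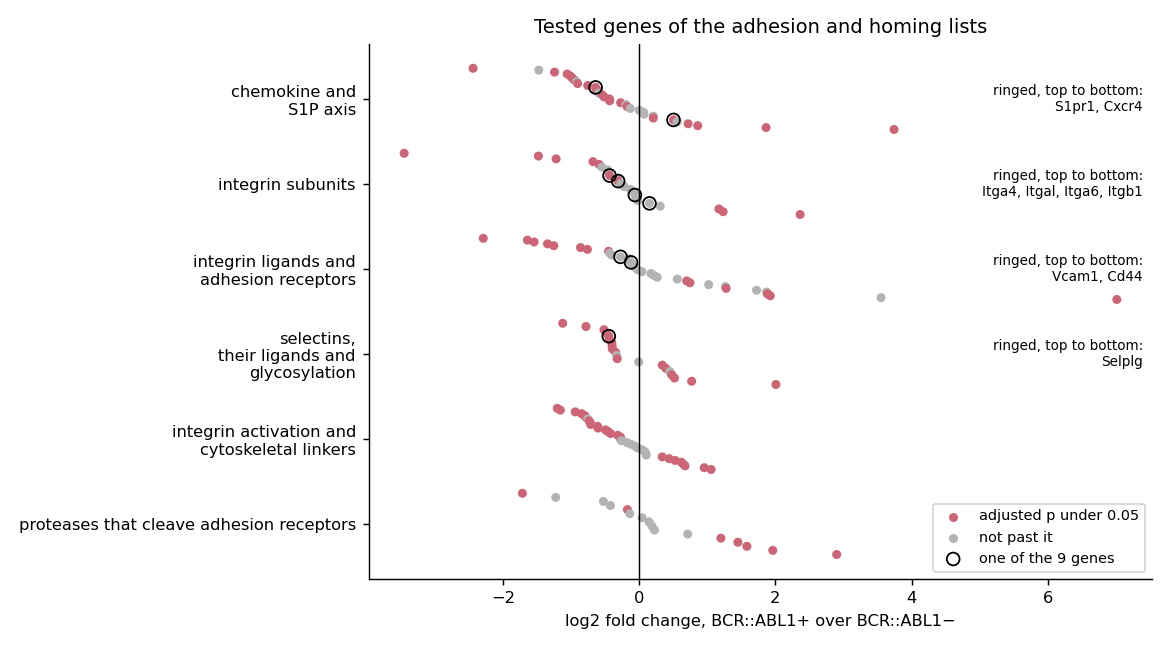
Log2 fold change of BCR::ABL1+ over BCR::ABL1− (horizontal axis) for each tested gene of the 6 adhesion and homing lists, 1 point per gene, ordered by value within a list, with red for an adjusted p under 0.05 and rings for the 9 genes. The 9 genes lie between −0.64 and 0.50, inside the spread of their own lists.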

How the data were processed

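Donor LSK cells were sorted for 12 libraries, and libraries were made with the Kapa RNA HyperPrep kit. The deposited values are whole-number read counts on Ensembl genes, 1 file per library, not normalised by the authors. The submitters' processing notes name FastQC 0.11.9, fastp 0.23.2, STAR 2.7.10a, featureCounts 2.0.1 and GRCm39, whereas the paper's methods name Trim Galore!, HISAT2 and a human build. Strand setting, annotation release and treatment of multiply mapped reads are not given in the sources used here, so reads of overlapping or antisense genes cannot be told apart. Human BCR::ABL1 was not counted. Symbols were matched for 52073 of 56748 identifiers, and 0 entries named no gene. Exon lengths came from GENCODE vM21 (GRCm38) and promoters from RefSeq (GRCm38.p6).

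Groups and replicate numbers were taken from sample titles. Whether each library is a separate recipient is not stated in the labels, so p-values measure the spread between these libraries. No pair of libraries agreed within sampling noise (lowest chi-square per degree of freedom 4.07). Counts were tested with edgeR 4.0.16 in R 4.3.3 (TMM factors, filterByExpr, quasi-likelihood test of group, Benjamini-Hochberg over 18438 genes, threshold 0.05). CPM values use TMM factors, and log2 CPM a prior count of 2. Subunit ratios are log2 ratios of counts plus 0.5, tested by exact permutation. A count of 0 allows up to 3 counts. Such limits cover counting error only. Alternatives were DESeq2 1.42.0, voom of limma 3.58.1, other scalings, no filter, a replicate block, the number series of the files as a term, and left-out libraries. The scaling by library size alone was added after the data were seen. The fits were tested on simulated data. Plots used Python 3.11.15 with matplotlib 3.10.9.

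The 9 genes and all lists were chosen with earlier results of these data known. Text names the 9 genes, 18 partners and ligands whatever their values, up to 4 genes per list with the largest change among those with an adjusted p under 0.05, no overlap and a mean log2 CPM of at least 1, the 2 genes nearest in pattern to each called gene, the sorting markers and sex-linked genes. Of these, 2 genes are not reported here.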

Additional observations from a re-analysis of the deposited data

Results flagged for a closer look

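In 100 groups of 6 libraries (single genes or ratios named here), 7 had a library whose gap to its nearest neighbour was large against the range of its group, beside 5 expected by chance, and 5 of the 7 concerned BCR::ABL1+ replicate 2. In that library Fn1 was at 2005 CPM (next 188), Spp1 at 2625 CPM (next 202.5), Ackr3 at 15.5 CPM (next 1.68) and Itga5 at 113 CPM (next 61.9). Its log2 ratio of Itga4 to Itga6 was 0.53, beside 1.15 in the nearest BCR::ABL1+ library. The same library had the highest stromal sum (1158 CPM) and the highest mast cell and basophil sum (2720 CPM), and their part in these values was not tested.

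In BCR::ABL1− replicate 4, Ccr1 was at 5.66 CPM (next 2.87) and Itgb2 at 90.4 CPM (next 70.4), beside a neutrophil marker sum of 2797 CPM in that library and 288 to 749 CPM in the other BCR::ABL1− libraries.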

How the results depend on the processing

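Cxcr4 and Itga4 kept direction and call in all 23 alternatives, with log2 fold changes of 0.40 to 1.07 and −0.71 to −0.36. With the number series of the files as a term, where the group effect rests on replicate 6, 1 of the 9 genes was lower, 14 and 28 pathway genes were higher and lower, and 2176 and 2468 of all genes were, in place of 5637 and 5339. S1pr1, Itgal and Selplg lost their calls there and in no other alternative, and Vcam1 turned to 1.83. The cause was not tested.

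Itga6 turned to 0.007 with upper-quartile factors, to 0.02 without replicate 6 of both groups and to 0.004 without BCR::ABL1+ replicate 3. Itgb1, at −0.012 to 0.223 with 1 library left out, turned to −0.012 without BCR::ABL1+ replicate 2 and to −0.002 without replicates 2 and 4. Itga6 and Cd44 passed the threshold without replicate 2 (−0.21 and −0.22) and without replicates 2 and 4 (−0.23 and −0.24).

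Leaving out 1 library at a time gave 4 to 6 of the 9 genes lower. It gave 29 to 37 pathway genes higher and 55 to 74 lower, beside 5172 to 6070 and 5013 to 5937 of all genes. It gave ratio differences of −0.62 to −0.43 for Itga4 to Itgb1, −0.25 to −0.15 for Itga6 to Itgb1, −0.38 to −0.24 for Itga4 to Itga6 and −0.107 to 0.083 for Itgal to Itgb2. Itgal to Itgb2 also turned to 0.09 without replicate 6 of both groups and to 0.10 without BCR::ABL1+ replicates 2 and 4. Itga6 to Itgb1 did not pass without replicate 6 of both groups (−0.13).

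Replicate numbers are only names here: same-numbered libraries deviated together with a correlation of −0.13 to 0.07. The replicate block left 1 gene higher and 4 lower of the 9, and 4786 higher and 5189 lower of all genes. Paired ratio differences of −0.55, −0.21 and −0.35 then had adjusted p of 0.0625, 0.0833 and 0.0625 by an exact sign-flip test. For −0.55 and −0.35 the groups did not overlap, so every paired difference was negative. Their p before adjustment was thus the smallest that sign flips of 6 pairs allow, and the adjusted p does not show a weaker shift.

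Among the 9 genes, depth limits S1pr1 and Vcam1 most, and Ackr3, Cxcl12, Ccr1, Spp1, Sele and Klf2 had lower means still in BCR::ABL1−.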

Other observations

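For each of the 5 called genes, the genes nearest in pattern over the 12 libraries were taken by the mean absolute difference of log2 CPM, each gene centred on its own mean. Nearest to Cxcr4 were Txnl4b (0.0926) and Higd2a (0.0934), to S1pr1 Tom1l2 (0.0994) and Flywch1 (0.101), to Itga4 Gtf3c1 (0.0427) and Slc26a2 (0.0452), to Itgal Sema4d (0.0635) and Cnot2 (0.0707), and to Selplg Hnrnpa3 (0.0389) and Ctcf (0.0493). The called genes themselves deviated from their own means by 0.18 to 0.42 on average on this scale.

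Within the 6 BCR::ABL1+ libraries, Cxcr4 and S1pr1 ran in nearly opposite order, a relation looked at after the values were seen. Pearson's r of their log2 CPM was −0.924 (exact permutation p = 0.0194) and Spearman's rho −0.943 (exact permutation p = 0.0167), and r was −0.873 without the 2 libraries farthest from the median of Cxcr4. Adjusted over the 36 pairs among the 9 genes, p was 0.23 for r and 0.2 for rho, so the relation did not pass. In the 6 BCR::ABL1− libraries r was −0.385 (exact permutation p = 0.454, adjusted p = 0.681) and rho −0.314 (exact permutation p = 0.564, adjusted p = 0.989). Itgb1 and Cd44 had r of 0.925 in BCR::ABL1− and 0.959 in BCR::ABL1+ and rho of 0.943 in both (exact permutation p = 0.00278 for r and 0.0167 for rho in both, adjusted p = 0.1 for r in both, and 0.3 and 0.2 for rho), and this pair did not pass either. The p of 0.00278 is the smallest that 6 libraries allow. Without the 2 libraries farthest from the median of Itgb1, r was 0.838 and 0.826. The libraries of a group share depth and preparation, and differences in the number series of the files were not tested in these pairs.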
